A study of Mus musculus with 20 samples.

Results

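Peroxiredoxins (Prdx1 to Prdx6), superoxide dismutases (Sod1, Sod2 and Sod3) and catalase (Cat) are among the enzymes that remove superoxide or peroxide. Their RNA was followed in 18 primary mouse osteosarcomas and in 2 libraries of an osteosarcoma cell line. The 10 genes were chosen by family membership, and the family was selected on earlier results of these same tumours, so their values are given as a description. All 10 were found among 49585 gene IDs of the count table, and all 10 passed the filter on low counts, as did 20616 genes in all. The mice mixed the strains C57BL/6J and 129S/SvJae, and each carried 1 altered Trp53 allele beside a wild-type one. The altered allele was a loss in p53+/- mice (p53 het, n = 4), and a missense allele in p53R172H/+ (R172H, n = 6), p53R245W/+ (R245W, n = 3) and p53R270H/+ mice (R270H, n = 5). Whether the wild-type allele was still present in a tumour, and where in the skeleton it grew, is not stated in the labels. The cell line, number 14, carried p53R245/O with loss of the other allele, and was sequenced once as a control and once after siRNA against p53. It is 1 line with 1 library per condition. The comparisons address whether tumours with a mutant p53 protein differ from those of p53+/- mice, and whether the mutant alleles differ among themselves.

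Superoxide leaks from mitochondrial respiration and is made by NADPH oxidases. Superoxide dismutases turn it into hydrogen peroxide: Sod1 in the cytosol with copper and zinc, Sod2 in the mitochondrial matrix with manganese, and Sod3 outside the cell. Catalase breaks hydrogen peroxide down in peroxisomes, while peroxiredoxins reduce it through a reactive cysteine that thioredoxin then restores. Prdx1 and Prdx2 act mainly in the cytosol, Prdx3 in mitochondria, Prdx4 in the endoplasmic reticulum, Prdx5 in several compartments, and Prdx6 is recycled with glutathione. Nrf2, the transcription factor of the oxidative stress response, binds antioxidant response elements in the promoters of such genes.

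Promoters from RefSeq (build GRCm38.p6, 250 bases before to 50 bases after the start) were found for 8 of the 10 genes, that is for all but Prdx6 and Sod3. They were searched on both strands for the antioxidant response element core TGACNNNGC, the FOXO site TGTTTAC, the Sp1 GC box GGGCGG and the CCAAT box CCAAT. The antioxidant response element core occurred in 2 of the 8, Prdx1 and Sod1, and in 12.4% of 32851 promoters of the same length. No FOXO site was found among the 8, against 3.65% of all promoters. A GC box was present in 8 of 8, against 35.7%, and a CCAAT box in 4 of 8, against 37.4%. The stretches below show the 2 promoters with an antioxidant response element core and, for contrast, that of Prdx4, which has none and whose RNA was highest in R270H tumours. Capitals mark every match to the 4 motifs, GC boxes of Sod1 overlap each other, and bases inside annotated exons are left out. The core reads GCTGAGTCA in Prdx1 and GCGTGGTCA in Sod1, both on the strand opposite to the gene. A match describes the letters and is not a measured site.
Prdx1, chr4:116685349-116685543, plus strand: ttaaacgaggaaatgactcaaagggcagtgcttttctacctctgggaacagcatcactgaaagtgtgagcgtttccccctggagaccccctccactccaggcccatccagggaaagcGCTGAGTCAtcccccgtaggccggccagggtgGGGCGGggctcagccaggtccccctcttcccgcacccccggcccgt
Sod1, chr16:90220512-90220753, plus strand: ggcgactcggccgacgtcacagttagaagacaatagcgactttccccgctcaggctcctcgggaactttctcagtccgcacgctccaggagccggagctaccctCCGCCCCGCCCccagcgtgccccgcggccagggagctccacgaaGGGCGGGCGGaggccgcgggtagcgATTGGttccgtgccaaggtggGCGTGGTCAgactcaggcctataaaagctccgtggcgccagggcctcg
Prdx4, chrX:155338475-155338710, minus strand: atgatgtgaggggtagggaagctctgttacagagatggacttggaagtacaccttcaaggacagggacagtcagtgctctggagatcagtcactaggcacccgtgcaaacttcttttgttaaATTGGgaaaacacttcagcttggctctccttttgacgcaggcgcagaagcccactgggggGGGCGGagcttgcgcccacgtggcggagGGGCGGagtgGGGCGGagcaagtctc

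Total counts were 20.1 to 29.2 M (megacounts) per tumour library and 64.1 and 73.4 M in the line, and a floor of 3 counts came to 0.103 to 0.149 CPM (counts scaled to the library total) in the tumours. Trp53 was measured at 13.5 to 26.98 CPM in p53 het, 36.3 to 71.3 in R172H, 57.5 to 74.0 in R245W and 26.5 to 53.2 in R270H tumours. The summed level of 10 osteoblast markers was 33890 to 135000 CPM, so genes of the labelled bone lineage were present in every tumour. In bulk tumours, fewer cells of a type and less RNA per cell cannot be told apart. Titles of 11 tumour libraries (p53 het 1 and 2, all R172H, all R245W) carry a serial number, and those of 7 (p53 het 3 and 4, all R270H) do not. What this difference stands for is not given. The 7 titles without a serial number do not share a common form. All R270H titles carry a prefix that no other library has, while p53 het 3 and 4 carry the prefix of p53 het 1 and 2. Whether these 7 libraries were handled alike is not stated, and R270H cannot be told apart from its own prefix. R270H cannot be told apart from the title kind against R172H or R245W, so p53 het is the only genotype that holds both kinds.

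Prdx1, a cytosolic peroxiredoxin, fell into a low and a high band across the tumours. The p53 het libraries 1 to 4 held 135, 169, 372 and 365 CPM. R172H tumours ran from 141 to 195 CPM with a median of 152.5, R245W tumours held 151, 183 and 136.5 CPM, and R270H tumours held 405, 308.5, 291, 374 and 294 CPM. Every R270H tumour lay above every R172H and R245W tumour, while p53 het was split, with libraries 1 and 2 among the low tumours and 3 and 4 among the high ones. The levels did not overlap between the kinds of title: 135 to 195 CPM in the 11 libraries with a serial number and 291 to 405 CPM in the 7 without. Of all genes, 1.22% were higher in all 7 than in all 11, and 2 of the 10 enzymes were, Prdx1 and Prdx4.

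Against R172H, Prdx1 was higher in R270H by a log2 fold of 1.10 ± 0.21 (SE; edgeR adjusted p = 0.0120). Within p53 het alone, libraries 3 and 4 exceeded 1 and 2 by 1.12 ± 0.24 (adjusted p = 0.0636), a comparison with no change of genotype. Taking the title kind into the model, which rests on those 4 p53 het libraries, left a log2 fold of −0.02 ± 0.28 for R270H against R172H (adjusted p = 0.990). R270H against p53 het 3 and 4, all without a serial number, gave −0.17 ± 0.19 (adjusted p = 0.811), and R172H against p53 het 1 and 2, all with one, gave −0.16 ± 0.20 (adjusted p = 0.880). The summed level of 7 mitochondrially encoded genes also differed between the p53 het pairs: it was 15780 and 18960 CPM in p53 het 1 and 2, and 8176 and 5083 CPM in p53 het 3 and 4. It was 10340 to 15850 CPM in R172H, 7964 to 14770 in R245W and 6778 to 11050 CPM in R270H tumours, with overlap, and none of the 7 genes passed in R270H against R172H. The part of these levels in the Prdx1 result was not tested.

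**Figure D1:**
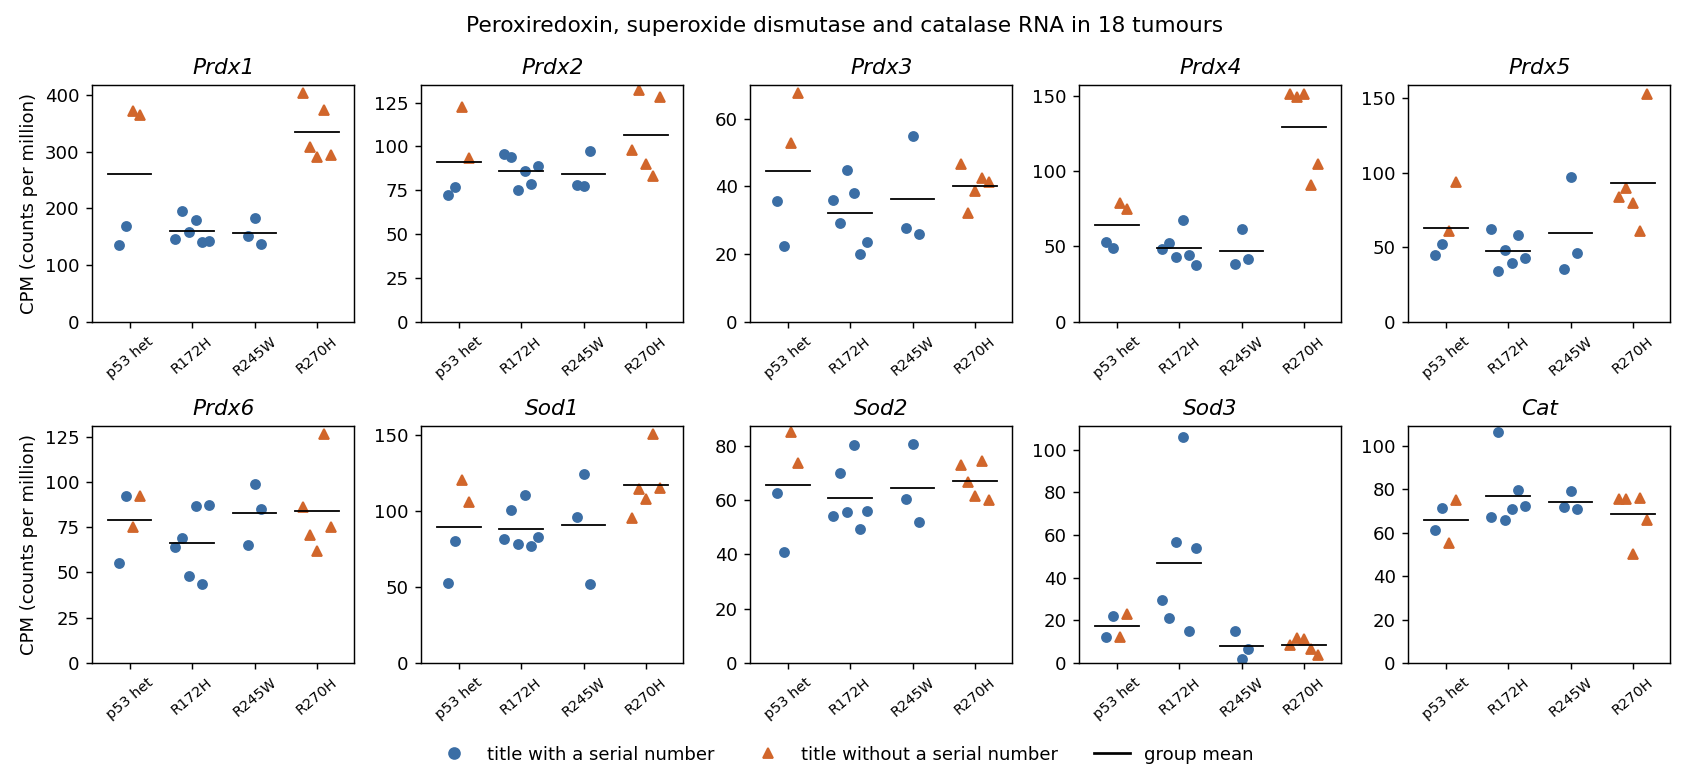
Level of each enzyme's RNA in CPM (vertical axis, from 0) in 18 tumours by genotype. Each point is 1 tumour, circles have a serial number in the title and triangles do not, and lines are group means. The Prdx1 points form a band at 135 to 195 CPM and another at 291 to 405 CPM, and Sod3 is spread widest in R172H.

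Prdx4, the peroxiredoxin of the endoplasmic reticulum, was highest in R270H tumours, which held 152, 149, 152, 91.0 and 105 CPM. The p53 het libraries 1 to 4 held 53.2, 49.0, 79.2 and 74.9 CPM. R172H tumours ran from 37.7 to 67.9 CPM with a median of 46.3, and R245W tumours held 38.2, 61.4 and 41.8 CPM. All 5 R270H tumours lay above the 13 other tumours, whose highest value was 79.2 CPM; 0.48% of all genes showed that order. Against R172H the log2 fold was 1.46 ± 0.20 (edgeR adjusted p = 0.00449). R245W lay below R270H by a log2 fold of −1.45 ± 0.25 (adjusted p = 0.0135), which was lost without R245W 1 (adjusted p = 0.0638) or R245W 3 (0.0709). Against p53 het the difference was 0.94 ± 0.22 (adjusted p = 0.161), with no overlap between the groups.

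Within the libraries that have no serial number, R270H exceeded p53 het 3 and 4 in Prdx4 by 0.73 ± 0.28 (adjusted p = 0.402), with 91.0 CPM as the lowest R270H value and 79.2 as the highest of the pair. With the title kind in the model, the estimate against R172H was 1.01 ± 0.36 (edgeR adjusted p = 0.504), where the SE had been 0.20. The call was lost. In that fit 1 of 20616 genes passed, against 1088 without the covariate, so the loss is not particular to Prdx4. Prdx4 lies on the X chromosome, and the sex of the mice was not analysed here.

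Prdx5, a peroxiredoxin of mitochondria, peroxisomes and cytosol, was higher in R270H than in R172H, with overlap. R270H tumours held 83.5, 89.8, 79.6, 61.2 and 153 CPM, and R172H tumours ran from 33.7 to 62.2 CPM with a median of 45.4. The p53 het libraries held 44.5, 51.9, 61.0 and 93.8 CPM, and R245W tumours 35.5, 97.2 and 46.1 CPM. The log2 fold against R172H was 1.01 ± 0.28 (edgeR adjusted p = 0.0458). Leaving out 1 tumour at a time kept the call in 7 of 18 fits, mostly those that left out a tumour of another genotype. It was lost without any 1 R172H tumour, without R270H 1, 2, 3 or 5, and without p53 het 3. Among the compared tumours, only R270H 4 could be left out. The adjusted p rose to 0.124 without R270H 5, the tumour at 153 CPM. Without a filter on low counts it was 0.0624. With the title kind in the model the estimate was 0.50 ± 0.54 (adjusted p = 0.814). Prdx5 shares 409 exon bases (19.1% of its exons) with Trmt112 on the other strand, and no strand setting is given for the counts, so reads there could belong to either gene.

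Prdx2, Prdx3 and Prdx6 passed in no comparison of genotypes. Prdx2, the peroxiredoxin abundant in red blood cells, ran from 72.0 to 132 CPM over all tumours, and its log2 fold for R270H against R172H was 0.33 ± 0.16 (edgeR adjusted p = 0.226). Prdx3, the mitochondrial form, ran from 20.1 to 67.6 CPM. Its p53 het libraries held 35.6, 22.3, 52.8 and 67.6 CPM, so the 2 without a serial number were again the higher ones. Prdx6 ran from 43.3 to 127 CPM, with a log2 fold of 0.36 ± 0.24 for R270H against R172H (adjusted p = 0.383). Prdx2 shares 173 exon bases with Junb and 177 with Rnaseh2a, which overlap it on the other strand.

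Sod3, the extracellular enzyme, varied most of the 10 over the tumours, from 1.87 to 106 CPM. R172H tumours had a lowest, median and highest level of 15.01, 41.7 and 106 CPM, and R270H tumours held 8.46, 11.7, 11.4, 6.59 and 3.67 CPM. The p53 het libraries held 11.9, 21.9, 12.2 and 22.9 CPM, and R245W tumours 14.8, 1.87 and 6.43 CPM. No R270H tumour reached the lowest R172H or p53 het tumour, and no R245W tumour reached the lowest R172H tumour. Sod3 was lower in R270H than in R172H by a log2 fold of −2.45 ± 0.55 (edgeR adjusted p = 0.0195). R245W against R172H gave −2.58 ± 0.68 (adjusted p = 0.174), and R270H against p53 het gave −1.13 ± 0.56 (adjusted p = 0.457).

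Unlike Prdx1, Sod3 did not separate the p53 het libraries by title, and with the title kind in the model its estimate for R270H against R172H was −2.31 ± 1.03 (adjusted p = 0.556). Fibroblast markers varied beside it: the summed level of 7 markers was 2230 to 12870 CPM in R172H and 3456 to 8452 in p53 het tumours. It was 748 to 2853 CPM in R245W and 1777 to 6976 in R270H tumours. None of these 7 passed in R270H against R172H, and 5 of them lay below 0, with a median log2 fold of −0.45. Of 7 osteoclast markers none passed there either, and 6 lay below 0, with a median of −1.04. The part of either cell type in the Sod3 result was not tested.

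Sod1 and Sod2 passed in no comparison of genotypes. Sod1 ran from 51.8 to 151 CPM, with a log2 fold of 0.44 ± 0.22 for R270H against R172H (edgeR adjusted p = 0.242). Sod2 ran from 40.8 to 84.9 CPM, with 0.18 ± 0.17 (adjusted p = 0.573). In p53 het, Sod1 held 52.5, 79.8, 120 and 106 CPM and Sod2 held 62.6, 40.8, 84.9 and 73.6 CPM, so libraries 3 and 4 were higher than 1 and 2 for both.

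Cat had the smallest relative spread over the tumours, with a coefficient of variation of 16.2%. It ran from 50.3 to 106 CPM, and R172H 2 alone exceeded 79.6 CPM. The log2 fold for R270H against R172H was −0.14 ± 0.14 (edgeR adjusted p = 0.593). The other 5 comparisons had estimates from −0.05 to 0.13.

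Over the 10 enzymes, R270H against R172H was the comparison with most calls: 4 passed, 3 higher (Prdx1, Prdx4, Prdx5) and 1 lower (Sod3), where 5.28% of all genes passed. In it 8 of 10 log2 folds lay above 0, with a median of 0.37 against −0.02 over all genes. With the title kind in the model 4 of 10 lay above 0, and the median turned to −0.04. R245W against R270H had 1 call, Prdx4, where 1.24% of genes passed. No member passed in R172H against p53 het (0.0776% of genes), R245W against p53 het (0.0728%), R270H against p53 het (0%) or R245W against R172H (0.155%). At an unadjusted edgeR p below 0.05, 3, 1, 1 and 1 of the 10 members passed in these 4 comparisons, beside 2527, 2577, 2364 and 2217 of all 20616 genes. DESeq2 called 0, 0, 1 and 1 members in them, beside 311, 365, 304 and 356 of 22106, 22106, 23483 and 22787 genes. In R172H against p53 het 8 of 10 estimates lay below 0, with a median of −0.30 against −0.02 over all genes. Against p53 het 1 and 2 alone 7 of 10 did, with a median of −0.04, and with the title kind in the model 6 of 10 did, with a median of −0.03. These comparisons share tumours, and the members were selected, so the counts describe these genes only.

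By level alone, 3 members did not overlap between R270H and R172H, where 6.72% of all genes did not. The count was 2 in R270H against p53 het (3.5% of genes), 2 in R245W against R270H (12.9%) and 1 in R245W against R172H (5.24%). It was 0 in R172H against p53 het (2.15%) and in R245W against p53 het (9.11%). Within p53 het, 7 of 10 members were higher in both libraries 3 and 4 than in both 1 and 2, where 23% of genes were. The exceptions were Prdx6, Sod3 and Cat. None passed edgeR in that comparison, in which 0.291% of genes did.

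Some markers of blood cells also differed between R270H and R172H, where 5.28% of all genes passed and genotype cannot be told apart from the title kind. Of 12 erythroid markers tested 5 were called higher. The summed level of the list was 477, 507, 705, 182 and 2428 CPM in R270H tumours 1 to 5, and 302 to 704 CPM in R172H. In the control library of the cell line the same list summed to 492 CPM, with 6 of its genes at 0, Hba-a1 and Hbb-bs among them. The sum thus does not measure blood cells alone. Of 9 neutrophil markers 4 were called higher. Their list summed to 99.3, 174, 19.1, 89.3 and 1341 CPM in R270H tumours 1 to 5, and to 2.93 to 47.7 CPM in R172H. The highest sum of both lists was thus that of R270H 5. No marker of either list was at 0 in every tumour of a genotype. Of 9 macrophage markers 1 was called lower and 0 higher. With the mean erythroid level in the model, Prdx1 and Prdx4 still passed, while Sod3 (log2 fold −2.09 ± 0.63, adjusted p = 0.0693) and Prdx5 (0.71 ± 0.28, adjusted p = 0.158) did not. The part of the neutrophil markers was not tested.

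**Figure D2:**
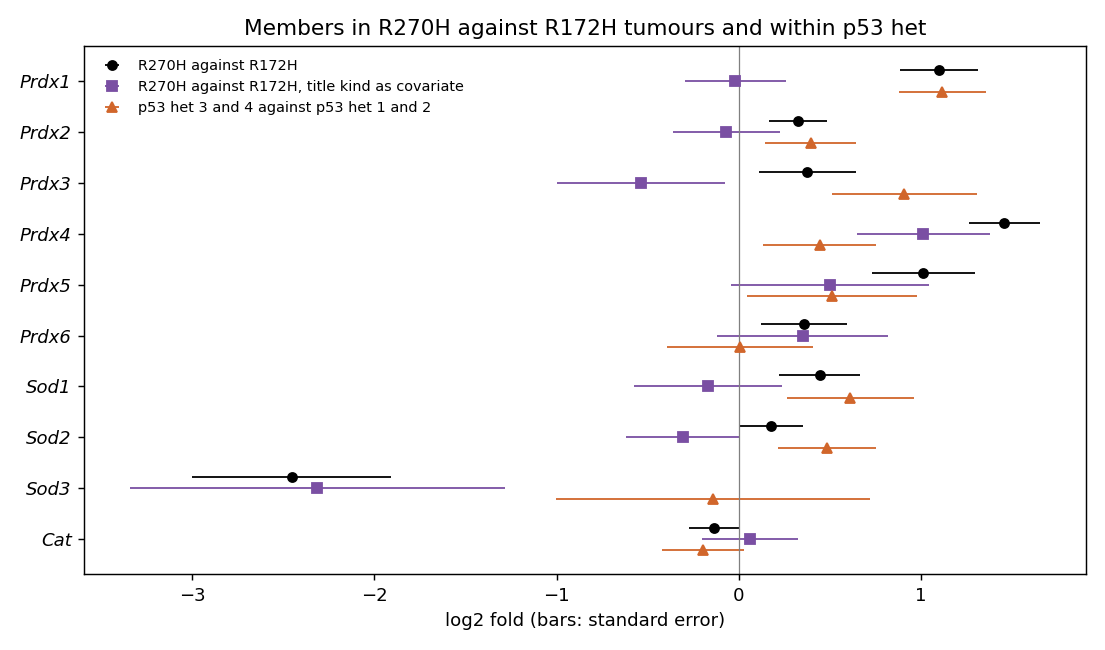
Log2 fold of each enzyme (horizontal axis; bars are standard errors) for R270H against R172H, for the same with the title kind in the model, and for p53 het 3 and 4 against 1 and 2. Prdx1 lies at 1.10, −0.02 and 1.12 in that order, and Prdx4 at 1.46, 1.01 and 0.44.

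Levels were also compared between genes per length, as TPM (counts scaled for gene length and library total). With all exons of a gene as its length, Prdx1 ranked first in 18 of 18 tumours, with a mean of 176 TPM. Below it Prdx4, Prdx2, Prdx5, Cat and Prdx3 followed at 82.2, 72.2, 71.7, 65.7 and 60.4 TPM, and each neighbouring pair kept that order in only 8 to 11 of 18 tumours. Sod3 and Sod2 were lowest, at 16.1 and 15.2 TPM. The place of Sod1 depended on the length used: 57.7 TPM over all 3970 exon bases, and 288 TPM over the 641 bases of its principal transcript, which made it first. Prdx1 was then next at 189 TPM, and Sod2 and Sod3 stayed the lowest, at 21.0 and 12.8 TPM.

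The genes that recycle or feed these enzymes were taken as 6 lists. In R270H against R172H, where 5.28% of all genes passed, at most 1 gene of a list did. That comparison and R245W against R270H cannot be told apart from the title kind. With it in the model, 1 and 8 of all 20616 genes passed in them. Of 18 thioredoxin and peroxiredoxin recycling genes none passed in any comparison. The lowest p there belonged to Sesn2, a stress-induced sestrin and p53 target, which held 9.75 to 24.3 CPM in R270H and 26.02 to 71.0 CPM in p53 het (log2 fold −1.69 ± 0.34, edgeR adjusted p = 0.102). Txnrd3, a thioredoxin reductase, came next at 1.13 ± 0.27 for R245W against R172H (adjusted p = 0.137). Of 18 glutathione genes 1 passed: Gpx8, a peroxidase of the endoplasmic reticulum, was 68.4 to 123 CPM in R270H and 31.9 to 61.2 CPM in R172H (0.93 ± 0.21, adjusted p = 0.0210). Its p53 het libraries 1 to 4 held 55.9, 74.7, 75.2 and 60.0 CPM, so libraries 2 and 3 lay within the R270H range.

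Of 23 genes of the Nrf2 list, 1 passed in each of 2 comparisons. Ftl1, the ferritin light chain that stores iron, held 29.4 to 74.3 CPM in R270H and 15.2 to 20.01 CPM in R172H (1.73 ± 0.37, edgeR adjusted p = 0.0164). Its p53 het libraries 1 to 4 held 8.36, 28.4, 58.5 and 67.9 CPM, again higher in 3 and 4. Taldo1, transaldolase of the pentose phosphate pathway, was lower in R245W than in R270H by −0.88 ± 0.21 (adjusted p = 0.0493), and its p53 het libraries held 49.6, 60.1, 93.5 and 74.4 CPM. The median of the list was 0.19 in R270H against R172H, with 17 of 23 above 0.

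Among 17 peroxisome assembly genes, 1 passed: Pex2, a ubiquitin ligase of peroxisomal import, held 39.7 to 49.0 CPM in R270H and 19.5 to 26.3 CPM in R172H (1.04 ± 0.18, edgeR adjusted p = 0.00777). Its p53 het libraries held 27.1, 26.3, 44.9 and 26.5 CPM, so 1 of the 4 lay within the R270H range. None of 22 tested genes that make superoxide or peroxide passed. The lowest p belonged to Loxl1, a lysyl oxidase (R245W against R172H −2.47 ± 0.72, adjusted p = 0.215), and Ncf1, a subunit of the phagocyte NADPH oxidase (R270H against R172H 0.76 ± 0.25, adjusted p = 0.0823). None of 15 tested genes of copper, manganese and heme supply passed either. There Ccs, the copper chaperone of Sod1, stood at 0.79 ± 0.25 for R270H against R172H (adjusted p = 0.0734), and Slc39a14, a manganese and zinc importer, at −0.86 ± 0.27 for R172H against p53 het (adjusted p = 0.238).

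How the enzymes varied from tumour to tumour was described after each genotype's mean was subtracted (log2 CPM, 18 tumours, no test). The tumours share libraries and depth across all genes. Subtracting the mean of p53 het leaves the difference between its libraries 1 and 2 and its libraries 3 and 4 in these values. Prdx1 deviated by −0.79, −0.34, 0.65 and 0.48 in p53 het 1 to 4, and by −0.24 to 0.28 in the other tumours. The part of that difference in the correlations was not tested. Of 45 pairs of members 33 had a correlation above 0, with a median r of 0.15. The highest were Prdx3 with Sod2 (r = 0.716), Prdx1 with Sod1 (0.704) and Prdx1 with Sod2 (0.670). The lowest was Prdx5 with Sod3 (−0.461).

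The 3 genes most like each member were in part genes of the member's own chromosome. Prdx1 was most like Med21 (r = 0.957), a Mediator subunit, Ndufb6, of respiratory complex I, and Atp5j2, of ATP synthase. Sod2 was most like Uqcrc2 (0.926), of complex III, Atp5f1 and Mrpl17. Sod1 was most like Atp5o (0.953), Ndufb4 and Psmg1, all on its own chromosome 16. Prdx3 was most like Ndufb8 (0.937), Rrp12 and Stambpl1, and Prdx5 like Vps51 (0.920), Rhod and Zfpl1, all on chromosome 19 as both members are. Prdx4 was most like Hnrnpk (0.879), then Tspan6 and Bcap31 on its own X chromosome. The remaining members were most like Adgrb2, Cpne7 and Dach1 (Prdx2), Thoc6, Mrps18b and Faap20 (Prdx6), Tmem200a and Pmepa1 (Sod3) and Cpne5, Iqcd and Scaf8 (Cat). In all, 13 of these 30 genes lay on the member's own chromosome, and the members' chromosomes hold 2.87% to 7.61% of tested genes each.

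That pattern, noticed after the values were seen, was followed to the genes within 10 Mb of each member. The median r with the member was 0.565 over 250 neighbours of Prdx5, 0.405 over 77 of Sod1 and 0.373 over 46 of Prdx3, while genes on other chromosomes had medians of 0.02, 0.01 and 0.03. Prdx1 had 0.06 over 189 neighbours and Sod3 −0.22 over 33. The member followed its neighbours' median across tumours with r = 0.89 (rho 0.83) for Prdx5 and 0.82 (rho 0.69) for Sod1. DNA copy number was not tested. In R270H against R172H the neighbours' median log2 fold was 0.07 at Prdx5 and 0.39 at Prdx4, beside 1.01 and 1.46 for the members themselves.

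**Figure D3:**
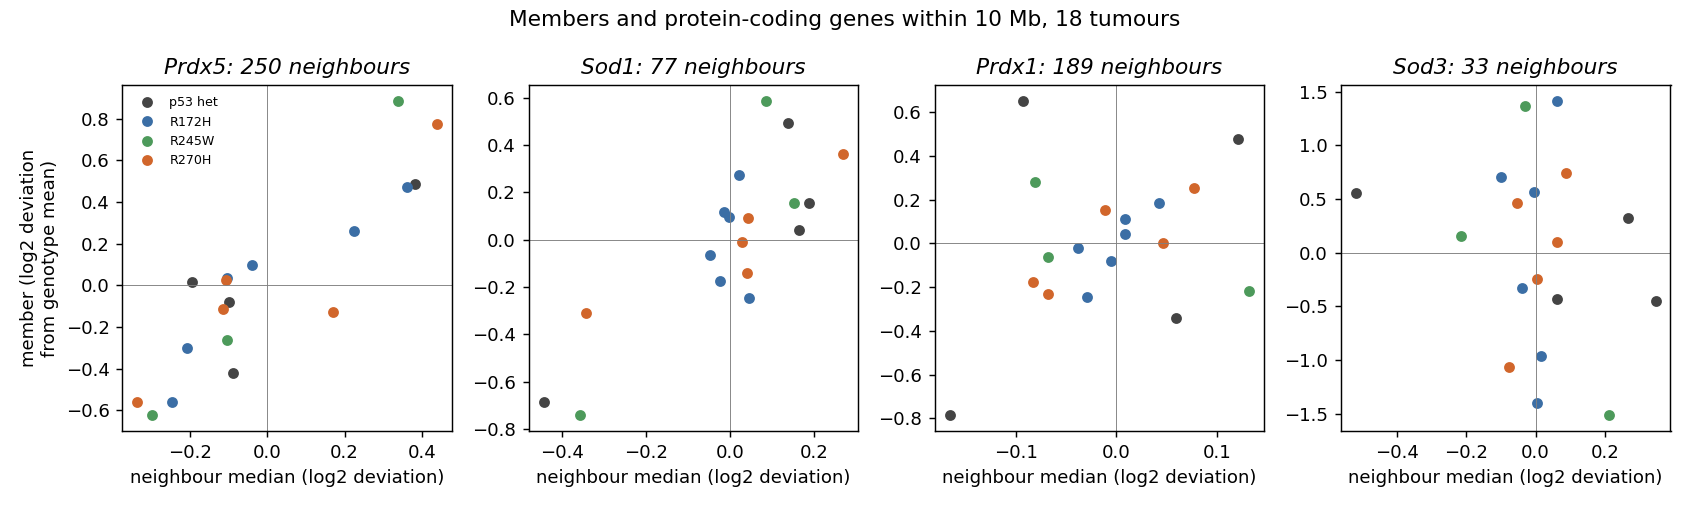
Deviation of a member from its genotype mean (vertical axis, log2 CPM) against the median deviation of its neighbours within 10 Mb (horizontal axis, log2 CPM), 1 point per tumour coloured by genotype. The r is 0.89 for Prdx5, 0.82 for Sod1, 0.29 for Prdx1 and −0.23 for Sod3.

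In cell line 14 the siRNA library held less Trp53, at 30.6 CPM against 94.9 in the control (log2 ratio −1.60 of CPM plus 1), and the 10 enzymes stayed within 2-fold. With 1 library per condition there is no test, and intervals (exact Poisson, 95%) cover counting error only. The log2 ratios of siRNA to control ran from −0.08 for Prdx3 to 0.22 for Prdx2, with 8 of 10 above 0 and a median of 0.09, against −0.02 over 9398 genes. Prdx2 was 282 CPM (278 to 286) in the control and 328 (323.9 to 332.2) after siRNA. Past 2-fold, 0.117% of genes changed level. Sesn2 was 109 CPM in the control and 53.9 after siRNA (log2 ratio −1.003), and Chac1, which degrades glutathione, had a log2 ratio of −1.22. No other gene of the 6 pathway lists went past 2-fold.

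Most of these enzymes had higher levels in the line than in any tumour. Both line libraries exceeded all 18 tumours for 7 of 10 members, where 16.9% of all genes did. The exceptions were Prdx4, Prdx5 and Cat. The control library was 9.09 times the tumour median for Sod3 (123 CPM), 4.89 times for Sod2 (303 CPM), 4.54 times for Prdx6 (341 CPM) and 3.15 times for Prdx2 (282 CPM). Cat stood at 68.0 CPM, 0.95 times the tumour median. Macrophage markers summed to 38.1 CPM in the control line and to 1232 to 3033 CPM in the tumours. Osteoblast markers were also lower in the line, at 8139 CPM in the control and 9203 after siRNA, against 33890 to 135000 CPM in the tumours. The line libraries were deeper as well, at 64.1 and 73.4 M against 20.1 to 29.2 M. The part of cell types, osteoblast genes and depth in the difference was not tested.

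**Figure D4:**
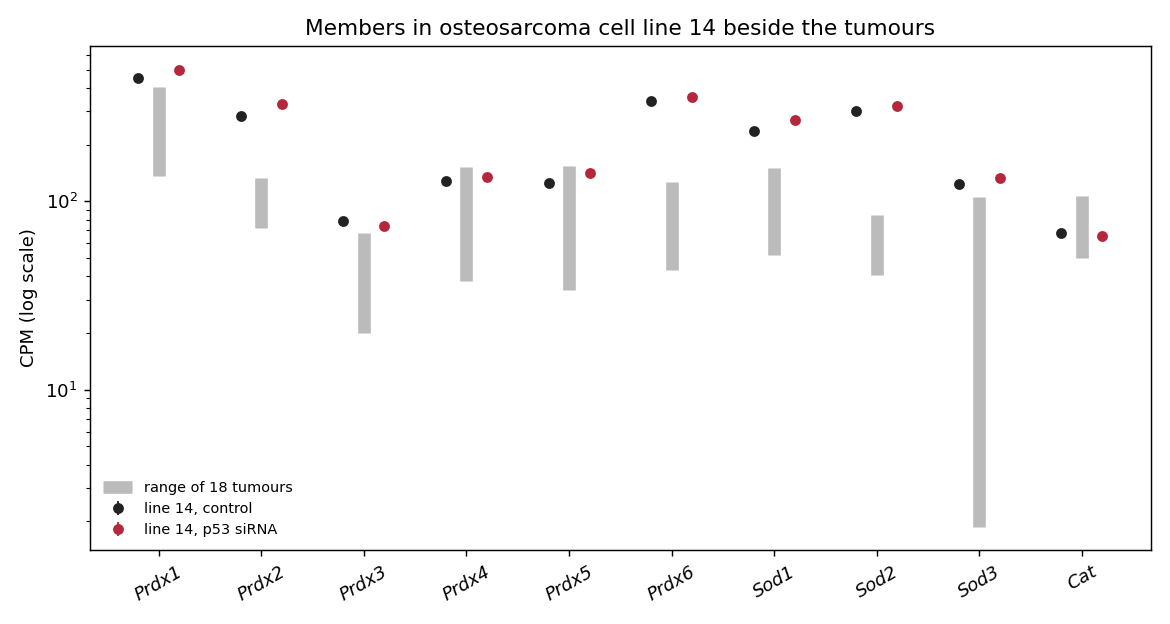
Level of each enzyme's RNA (vertical axis, CPM on a log scale) in the control and p53 siRNA libraries of line 14, with exact Poisson intervals that are smaller than the points, beside the range of 18 tumours (grey bars). Sod2 (303 and 319 CPM) and Prdx6 (341 and 357 CPM) lie farthest above the tumour range.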

How the data were processed

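Bulk RNA sequencing of 18 tumours and 2 cell line libraries was used. The authors deposited raw counts per gene, and per the submitters' processing notes and the labels reads were checked with FastQC and aligned to GRCm38 with STAR 2.6.0b. The counting program, its annotation and strand setting are not given in the sources used here. The members and the gene lists were chosen with earlier results of these data known. The main test was edgeR 4.0.16 (R 4.3.3): filterByExpr (minimum count 10, total 15), TMM, 1 quasi-likelihood fit over the 18 tumours by genotype with 14 residual degrees of freedom, Benjamini-Hochberg over 20616 genes per contrast, threshold 0.05. SE is the log2 fold over the square root of F. The edgeR p-values set the difference between genotypes against the spread between tumours, as estimated in that fit. The script was tested on simulated data. Same-group libraries differed beyond sampling noise. CPM uses total counts. All members are named. From each list the genes that passed are named, or else the 2 of lowest p, and per member the 3 genes of highest within-genotype r (log2 CPM, prior count 2), passing over gene models, pseudogenes and receptor segments. A gene chosen by this rule is not reported here. Line ratios use CPM plus 1 and genes of at least 10 CPM. Alternatives were DESeq2 1.42.0, its size factors, no filter, limma 3.58.1 voom with quality weights, only the groups compared, title kind, an erythroid covariate, and leaving out each tumour. The title kind covariate between mutants, p53 het 3 and 4 against 1 and 2, and the principal transcript length were added after seeing the data.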

Additional observations from a re-analysis of the deposited data

Results flagged for a closer look

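Cat in the tumour R172H 2 stood apart from its group: it held 106 CPM, where the other R172H tumours held 66.03 to 79.6 CPM. Its gap to the nearest tumour was 0.664 of the group's range, above the critical value of 0.625 for 6 samples. Of 30 groups of values examined in this way 1 was marked, and chance marks about 1 in 20.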

How the results depend on the processing

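No paired analysis was possible because the labels number no replicates. The number of members that passed was 4 in R270H against R172H, and 3 without a filter on low counts (Prdx5 was lost), 2 with the erythroid covariate and 0 with the title kind covariate, where Prdx1 turned to a log2 fold of −0.0189. It was 1 in R245W against R270H, and 3 with limma voom, 2 with DESeq2, 2 with only the groups compared and 0 with the title kind covariate. Leaving out 1 tumour gave 0 (without R245W 1 or 3) to 2 (without p53 het 1, 2 or 3, where Prdx1 passed). DESeq2 gave 1 in R270H against p53 het (Prdx4) and 1 in R245W against R172H (Sod3). Leaving out 1 tumour gave 0 to 1 in R172H against p53 het, where Prdx1 passed without p53 het 1. Prdx1, Prdx4 and Sod3 passed in 18 of 18 such fits of R270H against R172H. Over all genes that comparison had 1088 calls, 2219 with DESeq2, 2294 with limma voom, 1638 with only the groups compared, 633 without a filter, 1 with the title kind covariate and 469 to 1323 without 1 tumour. R245W against R270H had 255 calls, and 1217, 1047, 206, 109, 8 and 48 to 411. DESeq2 gave 311, 365, 304 and 356 in the remaining comparisons (16, 15, 0 and 32 by edgeR). With 3 to 6 tumours a genotype, the spread between tumours sets the precision, and every member was above the floor of 3 counts in every tumour.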
